A study of Mus musculus with 16 samples.

Results

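Mouse gingival fibroblasts treated with IL-1β alone were compared with the same kind of cells given the bovine serum albumin (BSA) control, over all genes and with no gene chosen in advance. Members were the 4 libraries with the treatment IL-1β (replicates 5 to 8) and the 4 with the treatment BSA (replicates 1 to 4), 8 of the 16 libraries of the series, and of the 56941 genes counted 16306 passed the filter on low counts and were tested. The other 8 libraries, treated with palmitate or with palmitate and IL-1β, entered the filter on low counts and the estimate of the spread, apart from a comparison with palmitate at the end. The cells were primary fibroblasts (mGF) grown out of gum tissue taken next to the upper second molar of wild-type (WT) C57Bl6 mice aged 3 to 6 months, kept in medium with 20% serum and used between passages 2 and 8. IL-1β was mouse recombinant protein at 1 ng/mL, the BSA control stood for the fatty acid carrier at 200 µM, and RNA was taken after 24 h, so that single time point shows neither the early response nor its decline. The labels name only IL-1β for these cultures, and the study's text describes the BSA vehicle as given both with the cytokine and without it. The sources used here do not say whether replicates were separate cultures or animals, and p-values therefore measure only the spread between these libraries.

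IL-1β binds the receptor IL1R1, which with its partner IL1RAP recruits the adaptor MYD88 and the IRAK kinases, and these activate the kinase complex that releases the transcription factor NF-κB from its IκB inhibitors. NF-κB then drives genes for chemokines, colony-stimulating factors and adhesion molecules as well as its own inhibitors, so that the signal is limited by feedback. In the gingiva, fibroblasts are the main stromal cells, and the neutrophil-attracting chemokines they release under IL-1β are a known part of gum inflammation.

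The cells carried the fibroblast markers, and the markers of other cell types, apart from those of pericytes and smooth muscle, summed to at most 24.6 counts per 1000000 (CPM) in any library. The summed level of 14 fibroblast markers, led by Fn1, lay between 60831 and 65447 CPM with BSA and between 66844 and 71978 CPM with IL-1β. Neutrophil markers had at most 3 counts in any library for 8 of 8 genes, and so did 8 of 12 macrophage markers, whose sum ran from 3.00 to 4.61 CPM with BSA and from 3.44 to 3.83 CPM with IL-1β. The sums of leukocyte markers (1.07 to 1.68 and 1.28 to 1.96 CPM), endothelial markers (2.62 to 3.13 and 2.72 to 3.28 CPM) and epithelial markers (4.16 to 5.09 and 3.99 to 5.48 CPM) overlapped between the groups, as did Schwann cell markers (10.6 to 12.8 and 9.21 to 12.3 CPM). Pericyte and smooth muscle markers summed to 518 to 562 CPM with BSA and to 467 to 502 CPM with IL-1β, and skeletal muscle markers to 22.8 to 24.6 and 18.1 to 22.2 CPM, so both sums were lower with IL-1β. The pericyte and smooth muscle sum was mostly Actg2, an actin of smooth muscle, at a mean of 372 CPM. In bulk RNA, fewer cells of a type and less RNA per cell cannot be told apart.

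IL-1β changed many genes, most of them by little, and the large changes were nearly all rises. At an adjusted p below 0.05 (quasi-likelihood test of edgeR, Benjamini-Hochberg adjusted over all tested genes), 2464 of 16306 genes were called (15.1%), 1654 higher (10.1%) and 810 lower (4.97%). Of these, 1963 had a log2 fold change smaller than 0.5 in size, 170 changed more than 2-fold (1.04% of the genes tested), and 147 of the 170 were higher. The median fold change over all tested genes was near 0 on the log2 scale (-0.005), and 18 genes were more than 8-fold higher. In 2877 genes (17.6%) the 4 IL-1β and 4 BSA libraries did not overlap, 1803 with IL-1β above and 1074 with IL-1β below, and 2026 of them were also called. The split depended on the scaling: rises were 67.1% of the calls with TMM scaling and 43.5% with upper-quartile scaling, where 1192 genes were higher and 1551 lower.

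The 8 libraries held 24376996 to 32600223 counts each, and 24198 to 25705 genes had at least 1 count. Mitochondrial genes took 11.4 to 14.0% of the counts. No difference between the groups was detected (difference -0.441 percentage points, exact permutation test, two-sided, p = 0.514, where 4 against 4 libraries cannot go below 0.0286). The libraries differed along transcript length, with IL-1β replicate 8 the most extreme, as the plot by length shows. Genes with a mean above 3 on the log2 CPM scale were put into 5 equal classes by length, with at least 1800 genes in each. In the class of the shortest transcripts the median deviation of IL-1β replicate 8 from the mean of the 8 libraries was -0.088 on the log2 scale. In that of the longest it was 0.145, against 0.060 and -0.092 for the 2 classes in BSA replicate 1. The trend was not confined to 1 library. In the longest class the BSA libraries lay between -0.092 and -0.006 and the IL-1β libraries between 0.009 and 0.145, without overlap. Calls followed the same order, with 6.21% of the genes with the shortest transcripts (56 to 2200 bases) and 30.2% of those with the longest (6044 to 123193 bases) called higher, and 8.59% and 2.72% called lower. Without IL-1β replicate 8, 1878 genes were called, 1315 higher and 563 lower, and 1779 of them were among the 2464. Leaving out BSA replicate 1 lowered the number of calls further, to 1784. With an offset that removes the trend with length in each library, a choice made after seeing the data, 2332 genes were called, of which 57.7% were higher. The part of transcript length in small changes was not tested, and the changes of more than 2-fold numbered 157 without IL-1β replicate 8 and 162 with the offset.

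**Figure D1:**
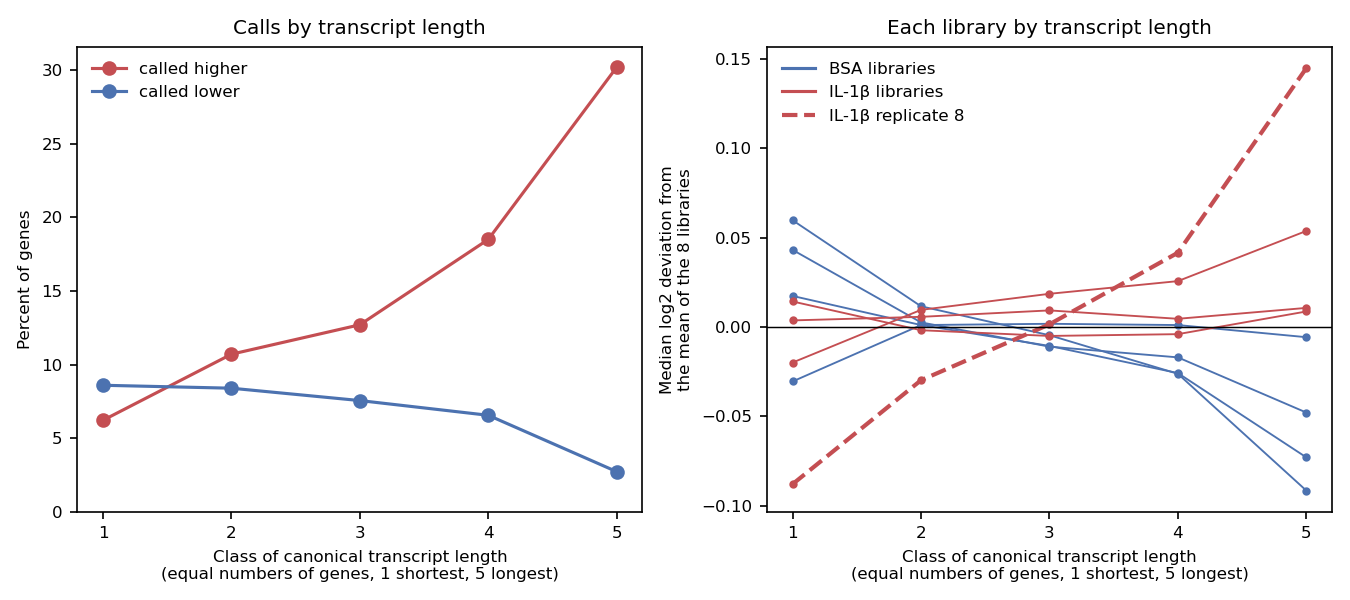
The left panel shows the percent of genes called higher and lower with IL-1β in each of 5 equal classes of canonical transcript length (genes with a mean above 3 on the log2 CPM scale), and the right panel each library's median log2 deviation from the mean of the 8 libraries in the same classes. Higher calls made up 6.21% of the shortest class and 30.2% of the longest, and IL-1β replicate 8 (dashed) ran from -0.088 to 0.145. In the longest class the BSA libraries lay between -0.092 and -0.006 and the IL-1β libraries between 0.009 and 0.145.

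Along the pathway itself, the receptor and adaptor genes moved little, the NF-κB subunits rose moderately, and the inhibitors and feedback genes rose most. In what follows, a number after ± is the standard error of a fitted log2 fold change or, for a level in CPM, the SD over the 4 libraries of a group. Counts of called members in a list stand beside 10.1% higher and 4.97% lower over all tested genes. Of 21 tested genes of the IL-1 receptor family and MYD88 signalling, 5 were called higher (4 without IL-1β replicate 8) and 0 lower, with a median log2 fold change of 0.10. Il1r1, the signalling receptor, changed from 42.7 ± 2.47 to 50.7 ± 4.40 CPM (log2 fold change 0.25 ± 0.06, adjusted p = 0.00562). The largest rise in this list was in Il1rl1, the receptor of IL-33, from 469 ± 29.0 to 775 ± 31.8 CPM (log2 fold change 0.72 ± 0.04, adjusted p = 4.65e-14), and the 8 libraries did not overlap. For Il1rap the rise was 0.14 ± 0.05 and was not called without IL-1β replicate 8. Among the members that were not called, Myd88 had a log2 fold change of 0.14 ± 0.06 (adjusted p = 0.139), and the 4 kinase genes Irak1, Irak2, Irak3 and Irak4 lay between -0.13 and 0.17.

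Of 12 NF-κB subunits and kinases, 9 were called higher (8 without IL-1β replicate 8) and 0 lower. Relb and Nfkb2, the pair of the alternative pathway, rose from 17.9 ± 0.528 to 33.5 ± 3.39 CPM and from 102 ± 2.12 to 183 ± 12.2 CPM, by log2 fold changes of 0.90 ± 0.06 and 0.84 ± 0.04. Rela, the subunit of the main activating dimer, moved less, from 43.8 ± 3.16 to 51.9 ± 4.26 CPM (log2 fold change 0.25 ± 0.05, adjusted p = 0.00153), and its libraries overlapped. Nfkb1 rose by 0.38 ± 0.05, Rel by 0.63 ± 0.06 and Map3k8, a kinase upstream of ERK, by 0.94 ± 0.11 on the log2 scale. The genes of the 2 catalytic kinases, Chuk and Ikbkb, were not called, at 0.11 ± 0.05 and 0.04 ± 0.06.

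Of 24 IκB proteins and NF-κB feedback genes, 19 were called higher (18 without IL-1β replicate 8) and 0 lower, with a median of 0.74 against -0.005 over all tested genes. Nfkbia, which encodes the inhibitor IκBα, stood at 17.7, 15.5, 16.5 and 17.4 CPM in BSA replicates 1 to 4 and at 47.6, 49.1, 47.7 and 42.6 CPM in IL-1β replicates 5 to 8. Every IL-1β library lay above every BSA library, and the log2 fold change was 1.48 ± 0.05 (adjusted p = 5.40e-20). Tnfaip3, the gene of the deubiquitinase A20, stood at 8.44, 8.50, 7.40 and 8.00 CPM with BSA and at 23.6, 27.0, 29.4 and 27.2 CPM with IL-1β, again without overlap (log2 fold change 1.73 ± 0.07, adjusted p = 5.43e-19). Zc3h12a, whose product regnase-1 degrades cytokine mRNAs, rose from 6.48 ± 0.448 to 19.2 ± 0.965 CPM (1.57 ± 0.07 on the log2 scale). The other IκB genes Nfkbie, Nfkbiz and Nfkbid rose by 1.41 ± 0.06, 1.37 ± 0.06 and 1.29 ± 0.31, and Birc3, a ubiquitin ligase of the TNF receptor complex, by 1.01 ± 0.06. Traf1 had the largest fitted rise of the list, 1.92 ± 0.37, at a level of 0.215 ± 0.0351 to 0.849 ± 0.315 CPM, and DESeq2 gave it no adjusted p. Otulin, Tnip2, Tnip3, Dusp1 and Zfp36 did not pass the test, with log2 fold changes from -0.07 to 0.92.

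**Figure D2:**
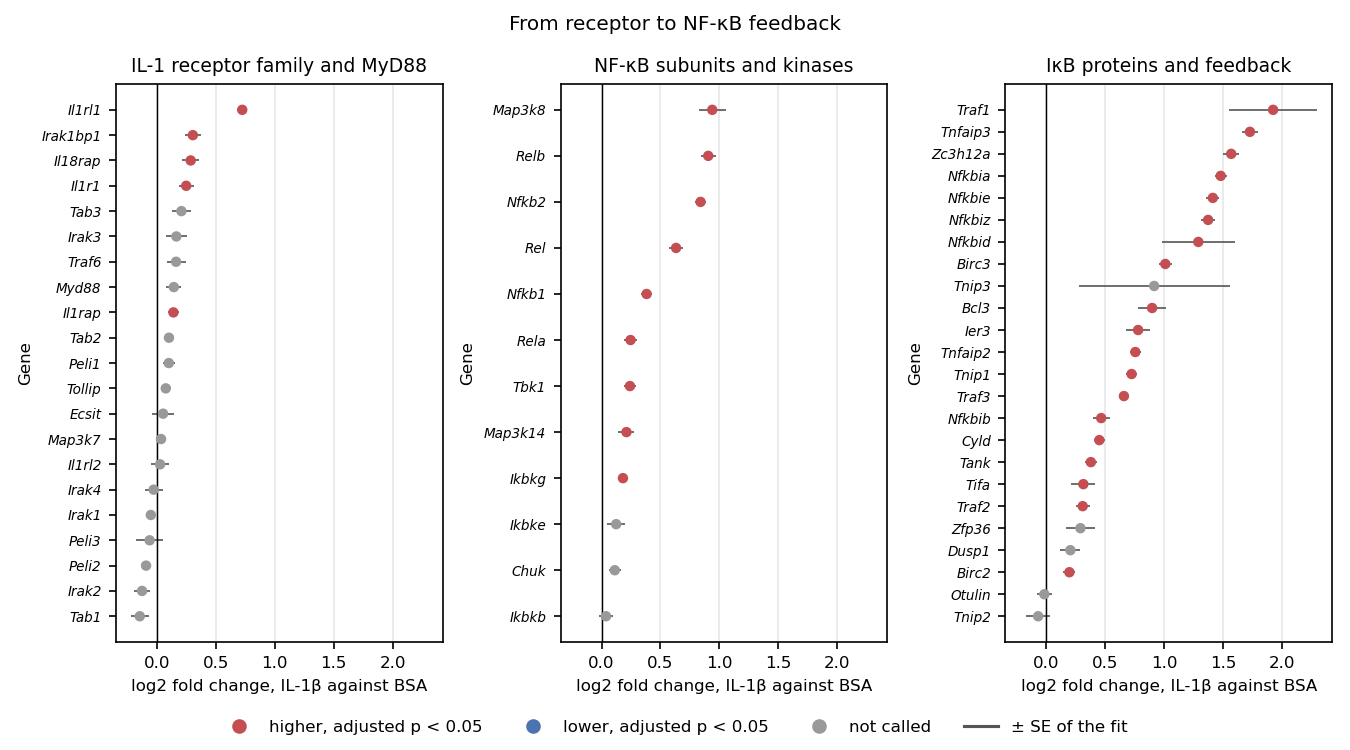
Fitted log2 fold change of every tested member of 3 lists on the way from receptor to NF-κB feedback (IL-1β against BSA, bars ± SE, red called higher, grey not called). Median changes were 0.10 for the receptor and MYD88 list, 0.24 for NF-κB subunits and kinases and 0.74 for IκB proteins and feedback genes.

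Chemokines that attract neutrophils had the highest median log2 fold change of the 40 gene lists, 3.40. Of 7 listed genes, 5 passed the filter on low counts, and of these 4 were called higher and 0 lower. That filter ran over all groups, so a gene nearly silent with BSA could be tested only if treated libraries held counts. Shares and medians of lists with such genes depend in part on that filter. Cxcl1 stood at 14.6, 14.4, 12.8 and 15.4 CPM in the BSA libraries and at 145, 148, 166 and 145 CPM in the IL-1β libraries, a rise of 10.5-fold (log2 fold change 3.40 ± 0.06, adjusted p = 2.02e-27). Cxcl5 was at 2.81, 3.00, 3.24 and 2.87 CPM with BSA and at 29.5, 28.8, 32.5 and 26.9 CPM with IL-1β, 9.92-fold higher (log2 fold change 3.31 ± 0.08, adjusted p = 7.27e-25). Cxcl2 was nearly silent with BSA, at 0.148, 0.162, 0.114 and 0.175 CPM, which came from 3 to 5 counts in each library, and stood at 5.32, 5.19, 5.70 and 5.10 CPM with IL-1β (log2 fold change 5.11 ± 0.24, adjusted p = 5.56e-17). For these 3 genes the IL-1β libraries lay close together and far above the BSA libraries. Cxcl3 had 1 count in the 4 BSA libraries together and 38 in the 4 IL-1β libraries, with 6 to 15 in each, a ratio of 42.9 after scaling to library size (95% exact interval 7.26 to 1741, for counting error only). Ppbp, the remaining member tested, had a log2 fold change of -0.63 ± 0.23 (adjusted p = 0.0647) and was called lower only with upper-quartile scaling. These genes share the receptor CXCR2 and lie together on chromosome 5 of the mouse (build GRCm39), from Cxcl5 (90907186 to 90909483) over Ppbp (90916371 to 90917930), Cxcl3 (90933962 to 90937459) and Cxcl1 (91039094 to 91040974) to Cxcl2 (91051730 to 91053797), so that the uncalled Ppbp sat between members that rose.

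The sequences before the start sites of 7 genes are shown because they hold, at short distance from the start, letters known as binding motifs of NF-κB or of interferon-activated factors. Each is the stretch of 170 bases that ends just before the RefSeq start of the gene (RefSeq, build GRCm38.p6, placed on GRCm39 by exact match), printed in the direction of the gene, and capitals mark the matches. The motifs searched were a κB motif, the letters GGGAATTTCC with any base at position 5, and the core of the interferon-stimulated response element, the letters TTTCAATTTC with any base at positions 5 and 6, each on both strands. They come from chr5:91038934-91039103 (Cxcl1, plus strand), chr5:91051588-91051757 (Cxcl2, plus), chr5:90933790-90933959 (Cxcl3, plus), chr12:55539433-55539602 (Nfkbia, minus), chr3:107667786-107667955 (Csf1, minus), chr3:142202525-142202694 (Gbp5, plus) and chr3:142326254-142326423 (Gbp2, plus).
Cxcl1: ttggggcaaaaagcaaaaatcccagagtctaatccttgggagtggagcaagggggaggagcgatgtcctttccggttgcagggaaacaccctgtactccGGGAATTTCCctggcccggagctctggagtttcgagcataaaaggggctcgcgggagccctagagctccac
Cxcl2: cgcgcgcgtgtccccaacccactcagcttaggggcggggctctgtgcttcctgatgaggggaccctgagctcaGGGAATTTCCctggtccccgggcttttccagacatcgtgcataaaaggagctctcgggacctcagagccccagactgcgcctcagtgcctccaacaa
Cxcl3: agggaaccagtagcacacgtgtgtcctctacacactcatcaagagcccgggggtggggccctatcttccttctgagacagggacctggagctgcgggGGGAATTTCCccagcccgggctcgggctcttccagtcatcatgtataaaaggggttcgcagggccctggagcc
Nfkbia: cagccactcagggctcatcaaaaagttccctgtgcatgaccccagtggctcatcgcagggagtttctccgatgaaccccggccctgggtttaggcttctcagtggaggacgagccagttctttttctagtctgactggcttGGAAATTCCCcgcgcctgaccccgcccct
Csf1: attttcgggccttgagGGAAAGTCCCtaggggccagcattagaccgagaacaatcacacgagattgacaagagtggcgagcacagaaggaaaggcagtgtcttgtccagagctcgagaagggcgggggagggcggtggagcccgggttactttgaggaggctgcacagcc
Gbp5: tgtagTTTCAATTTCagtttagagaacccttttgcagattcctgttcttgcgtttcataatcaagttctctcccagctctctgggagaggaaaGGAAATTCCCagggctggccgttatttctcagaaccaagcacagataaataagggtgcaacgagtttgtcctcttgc
Gbp2: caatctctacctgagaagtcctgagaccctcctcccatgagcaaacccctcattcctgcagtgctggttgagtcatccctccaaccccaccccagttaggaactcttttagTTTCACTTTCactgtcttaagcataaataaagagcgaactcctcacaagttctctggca
Cxcl1, Cxcl2 and Cxcl3 held the same 10 letters, GGGAATTTCC, at 71 to 62, 97 to 88 and 73 to 64 bases before the start. Their reverse complement lay 29 to 20 bases before the start in Nfkbia and 77 to 68 in Gbp5. Csf1 held GGAAAGTCCC at 154 to 145 bases, which differs from that reverse complement at the base the motif leaves free. Gbp5 also held TTTCAATTTC at 165 to 156 bases, and Gbp2 held TTTCACTTTC at 59 to 50. Genes were chosen for this print after their matches were seen.

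Over a window of 250 bases before to 50 after the start, on both strands, the κB motif was found in 10 of the 93 genes with a RefSeq promoter that were more than 2-fold higher (10.8%). It was found in 57 of 10864 tested genes (0.525%), in 0.411% of 32851 RefSeq promoters and in 1 of 599 genes called lower (0.167%). Among the neutrophil-attracting chemokines 3 of 6 genes held it and among the IκB and feedback genes 3 of 23. A match describes letters only and is not evidence of binding.

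The other chemokines of the CXC and CX3C families rose as well, 5 of 6 tested (9 listed), with 0 lower and a median of 2.27. Cxcl10, a ligand of CXCR3 on T cells, stood at 1.39, 2.65, 1.53 and 2.20 CPM with BSA and at 16.5, 15.5, 17.2 and 13.0 CPM with IL-1β, with no overlap (log2 fold change 3.00 ± 0.27, adjusted p = 4.66e-06). The related Cxcl9 had 2 counts in all BSA libraries and 37 in all IL-1β libraries (ratio 20.9, 95% exact interval 5.39 to 179). Cxcl11 had 0 and 45 counts, at least 17.0-fold higher against a floor of 3 counts over the BSA group. DESeq2 gave no adjusted p for Cxcl3 and Cxcl11, and 41.7% of the Cxcl11 transcript also matches another gene closely. Cx3cl1, an attractant of monocytes, was much more abundant and went from 37.0 ± 1.46 to 74.5 ± 4.46 CPM (1.01 ± 0.05 on the log2 scale), and Cxcl16 from 2.69 ± 0.377 to 7.86 ± 0.569 CPM (1.54 ± 0.10). Cxcl16 shares 90.8% of its transcript with 2 other genes, 72.4% with Med11 alone, so its counts are uncertain.

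Of 21 listed CC chemokines 11 were tested, and of these 6 were called higher and 0 lower, with a median of 0.70. Ccl2, the main attractant of monocytes, stood at 20.2, 19.4, 15.9 and 25.3 CPM with BSA and at 132, 108, 116 and 97.4 CPM with IL-1β (log2 fold change 2.49 ± 0.12, adjusted p = 2.21e-09). Ccl7, which lies next to it on chromosome 11, stood at 20.3, 19.4, 20.3 and 22.9 CPM and 76.5, 69.3, 76.3 and 82.3 CPM (log2 fold change 1.88 ± 0.06, adjusted p = 5.30e-22). Both rose without overlap, Ccl2 with the wider spread among the IL-1β libraries. Ccl20, the ligand of CCR6, was at 0.118, 0, 0.0381 and 0.0350 CPM with BSA and at 2.41, 1.52, 1.30 and 0.953 CPM with IL-1β (log2 fold change 4.83 ± 0.44, adjusted p = 1.08e-09), and its fitted change was 5.82 without BSA replicate 1, which held 4 of the 6 BSA counts. Ccl5 rose from 0.342 ± 0.166 to 2.30 ± 0.606 CPM (2.78 ± 0.27 on the log2 scale), Ccl9 by 1.70 ± 0.12 and Ccl8 by 0.70 ± 0.15. Within the chromosome 11 cluster Ccl2 (81926397 to 81928279), Ccl7 (81936532 to 81938351) and Ccl8 (82006007 to 82007625) were called higher, while Ccl11 (81948618 to 81953781) between them was not (-0.01 ± 0.36, adjusted p = 0.989). Gm31522 (ENSMUSG00000109297.2), a long noncoding RNA on the opposite strand that ends 285 bases from Ccl2, was also higher, from 0.131 ± 0.127 to 0.531 ± 0.109 CPM (2.06 ± 0.47).

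**Figure D3:**
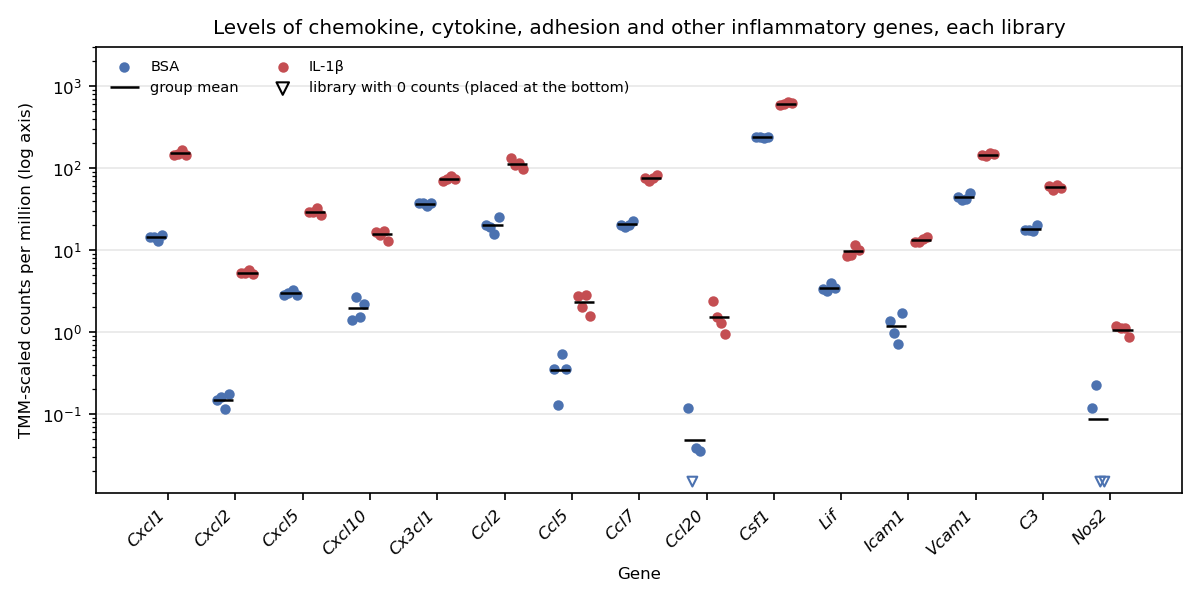
Level of 15 inflammatory genes in each of the 8 libraries as TMM-scaled CPM on a log axis (blue BSA, red IL-1β, line at the group mean, open triangles for libraries with 0 counts). In every gene shown the 4 IL-1β libraries lie above the 4 BSA libraries, as in Cxcl1 with 12.8 to 15.4 CPM against 145 to 166 CPM.

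Among interleukins and colony-stimulating factors 6 of 16 tested genes were called higher (5 without IL-1β replicate 8) and 0 lower. Csf1, the growth factor of macrophages and osteoclast precursors, stood at 240.3, 241, 234 and 238 CPM with BSA and at 590.0, 602, 636 and 620.2 CPM with IL-1β, 2.57-fold higher (log2 fold change 1.36 ± 0.04, adjusted p = 3.35e-22). Il6 was low in all libraries, at 0.385, 0.452, 0.534 and 0.385 CPM with BSA and at 0.859, 1.02, 0.696 and 1.12 CPM with IL-1β (log2 fold change 1.06 ± 0.24, adjusted p = 0.00225). The groups did not overlap in either gene, and the spread among libraries was wider in Il6. Lif, a cytokine of the IL-6 family, rose from 3.49 ± 0.372 to 9.71 ± 1.38 CPM (1.49 ± 0.10), Kitl, the ligand of KIT, from 44.4 ± 3.04 to 71.7 ± 1.22 CPM (0.69 ± 0.05) and Il15 from 2.08 ± 0.427 to 3.69 ± 0.298 CPM (0.83 ± 0.14). Il1rn, the natural antagonist of the IL-1 receptor, had a log2 fold change of 0.38 ± 0.14 (adjusted p = 0.0634) and Il33 of -0.22 ± 0.16 (adjusted p = 0.420). Il1a, Il1b, Tnf and Csf2 were too low to be tested, and Il1b mRNA in these cells could therefore not be assessed at this depth.

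Adhesion molecules for leukocytes followed, with 6 of 18 tested genes called higher and 1 lower (7 and 0 without IL-1β replicate 8). Icam1, the ligand of LFA-1 on leukocytes, stood at 1.36, 0.969, 0.725 and 1.71 CPM with BSA and at 12.5, 12.6, 13.5 and 14.4 CPM with IL-1β, 11.0-fold higher (log2 fold change 3.46 ± 0.12, adjusted p = 3.79e-18). Vcam1, the ligand of the integrin VLA-4, stood at 44.7, 41.3, 42.0 and 49.4 CPM and 145, 139, 153 and 147 CPM (log2 fold change 1.72 ± 0.05, adjusted p = 3.77e-22). The groups did not overlap in either gene, and the Icam1 libraries with BSA ran from 0.725 to 1.71 CPM. Cd44, a hyaluronan receptor, rose by 0.42 ± 0.04 and Pvr by 0.48 ± 0.06 on the log2 scale. In the TNF superfamily 7 of 22 tested genes were higher (8 without IL-1β replicate 8) and 0 lower. Fas, the death receptor, rose from 17.5 ± 1.57 to 33.3 ± 2.28 CPM (0.93 ± 0.06), Tnfrsf9 by 1.23 ± 0.24 and Tnfrsf10b by 0.32 ± 0.04. Tnfsf11, which encodes the osteoclast factor RANKL, went from 0.619 ± 0.148 to 1.20 ± 0.276 CPM (log2 fold change 0.93 ± 0.28, adjusted p = 0.0225), and the call was lost without any one of BSA replicates 2 and 4 and IL-1β replicates 5 and 6. Icosl, a costimulatory ligand for T cells that was in none of these lists, rose from 0.994 ± 0.225 to 6.60 ± 0.555 CPM (log2 fold change 2.73 ± 0.14, adjusted p = 8.73e-16).

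Complement and acute-phase genes were mostly uncalled, 4 of 19 tested (35 listed) higher and 0 lower. C3, the central complement protein, rose from 18.0 ± 1.39 to 58.5 ± 3.79 CPM (log2 fold change 1.70 ± 0.06, adjusted p = 8.39e-21). Ptx3, a pentraxin that opsonizes microbes, rose from 55.8 ± 2.67 to 100.0 ± 5.97 CPM (0.84 ± 0.05 on the log2 scale) and Serpina3i from 0.552 ± 0.102 to 1.57 ± 0.317 CPM (1.53 ± 0.20). Saa3, the acute-phase amyloid of local tissues, rose from 0.0835 ± 0.0659 to 0.721 ± 0.0762 CPM (3.05 ± 0.36) and stayed below 1 CPM. Of the 12 Toll-like receptors and co-receptors tested, 3 were called higher and 0 lower. Tlr2, the receptor of bacterial lipoproteins, stood at 12.6, 13.5, 12.6 and 12.0 CPM with BSA and at 26.9, 28.7, 28.4 and 27.9 CPM with IL-1β (log2 fold change 1.14 ± 0.07, adjusted p = 2.70e-14). Tlr4, the lipopolysaccharide receptor, had a log2 fold change of 0.13 ± 0.05 (adjusted p = 0.104) and its co-receptor Cd14 of 0.19 ± 0.19 (adjusted p = 0.554), and both overlapped between the groups. Nod2, the intracellular sensor of muramyl dipeptide, stood at 0.562, 0.582, 0.534 and 0.524 CPM with BSA and at 2.74, 3.16, 3.13 and 2.90 CPM with IL-1β (log2 fold change 2.43 ± 0.18, adjusted p = 4.33e-12), and its signalling kinase Ripk2 rose from 38.7 ± 2.18 to 90.6 ± 3.44 CPM (1.23 ± 0.05).

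Genes of lipid and gas mediators rose in part. Of 17 tested genes of prostaglandin synthesis and receptors 7 were called higher (5 without IL-1β replicate 8) and 0 lower. Ptgs2, the inducible cyclooxygenase, stood at 110.3, 119, 135 and 120.1 CPM with BSA and at 243, 251, 269 and 267 CPM with IL-1β (log2 fold change 1.09 ± 0.05, adjusted p = 2.93e-17). Ptges, the terminal synthase of prostaglandin E2, moved from 20.7 ± 0.742 to 25.7 ± 0.367 CPM (0.31 ± 0.06), and the exporters and importers Abcc4 and Slco2a1 rose by 0.78 ± 0.04 and 0.50 ± 0.07. Among 11 nitric oxide and arginine genes 4 were higher and 3 lower. Nos2, the inducible nitric oxide synthase, stood at 0.118, 0.226, 0 and 0 CPM with BSA and at 1.19, 1.13, 1.11 and 0.870 CPM with IL-1β (log2 fold change 3.50 ± 0.39, adjusted p = 2.67e-07), and the change was 4.46 without BSA replicate 2. Gch1, which makes the cofactor of that enzyme, rose by 1.13 ± 0.24, and the arginine transporters Slc7a1 and Slc7a2 by 0.53 ± 0.05 and 0.66 ± 0.07.

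Genes best known from the interferon response were split. The guanylate-binding proteins and immunity-related GTPases, which attack the membranes of intracellular pathogens, were called higher in 11 of 17 (10 without IL-1β replicate 8) and lower in 0, with a median of 1.33. Gbp5 stood at 0.681, 1.10, 0.725 and 1.01 CPM with BSA and at 9.00, 6.91, 7.47 and 7.50 CPM with IL-1β (log2 fold change 3.13 ± 0.17, adjusted p = 1.12e-11). Gbp2 was at 24.6, 23.1, 23.4 and 25.8 CPM and 60.8, 60.6, 62.6 and 58.8 CPM, 2.51-fold higher (log2 fold change 1.33 ± 0.05, adjusted p = 1.95e-18), and Gbp3 and Gbp9 rose by 1.46 ± 0.16 and 1.59 ± 0.18. Tgtp1 rose from 0.152 ± 0.0854 to 1.13 ± 0.303 CPM (2.87 ± 0.41), but all of its transcript is near-identical to other genes, so reads of Tgtp1 and Tgtp2 cannot be assigned with certainty. In this list 10 of the 11 genes with a RefSeq promoter held the core of the interferon-stimulated response element within 250 bases before to 50 after the start (90.9%, against 3.65% of tested genes). That share covers all members, called or not, of a list chosen by role. Of all genes with a promoter that were called higher 4.13% held it, and of those more than 2-fold higher 11.8%.

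Of the antiviral interferon-stimulated genes, 11 of 41 were called higher and 0 lower, with a median of 0.39, and the count ran from 7 to 12 when 1 library was left out. Parp14 stood at 11.9, 10.5, 10.9 and 12.1 CPM with BSA and at 28.6, 27.3, 26.5 and 28.9 CPM with IL-1β (log2 fold change 1.29 ± 0.11, adjusted p = 6.66e-07), and Dtx3l, the ubiquitin ligase encoded beside it, rose by 0.76 ± 0.06. Ifit1 rose from 6.59 ± 1.18 to 16.1 ± 5.62 CPM (log2 fold change 1.27 ± 0.32, adjusted p = 0.0185), with IL-1β replicate 5 the highest at 24.4 CPM, and lost the call without that library or without BSA replicate 2. Isg15 and Rsad2 did not pass the test, at 0.27 ± 0.59 and 1.68 ± 0.76, and their libraries overlapped, though DESeq2 called Rsad2 higher. Isg15 was near the floor, at 0.286 CPM in IL-1β replicate 5 and 0.095 to 0.124 CPM in the other IL-1β libraries. There 3 counts were worth 0.095 to 0.124 CPM, so a change in Isg15 could not be judged at this depth. Of the Isg15 transcript 61.6% matches other genes closely. Of 9 interferon regulatory factors and STATs 3 were called higher. Irf1 stood at 19.5, 19.8, 18.5 and 19.6 CPM with BSA and at 38.1, 38.5, 37.6 and 35.2 CPM with IL-1β (log2 fold change 0.95 ± 0.05, adjusted p = 5.57e-15) and Irf5 rose by 0.50 ± 0.10. Genes of antigen presentation by MHC class I and the immunoproteasome were called higher in 11 of 20 and lower in 0. H2-K1 rose from 18.9 ± 1.73 to 29.4 ± 1.82 CPM (0.64 ± 0.06), Psmb8 from 0.413 ± 0.234 to 1.20 ± 0.108 CPM (1.54 ± 0.28), Psmb10 by 0.76 ± 0.10 and Tap1 by 0.25 ± 0.07, while B2m was not called (0.12 ± 0.05). H2-Q4 had a fitted rise of 1.38 ± 0.27, but 72.1% of its transcript matches other MHC genes closely.

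Genes controlled by NRF2, the transcription factor of the oxidant response, formed another block of rises, 19 of 30 tested, with 1 lower and a median of 0.30. Slc7a11, the cystine importer, stood at 44.5, 49.1, 54.9 and 47.4 CPM with BSA and at 231, 249.6, 271 and 281 CPM with IL-1β, 5.27-fold higher (log2 fold change 2.40 ± 0.09, adjusted p = 9.93e-13). Srxn1, which repairs peroxiredoxins, stood at 148, 154, 166 and 155 CPM and 368, 394, 414 and 400.0 CPM (log2 fold change 1.34 ± 0.05, adjusted p = 6.36e-20). Hmox1, the heme-degrading enzyme, stood at 471, 411, 426 and 446 CPM and 883, 968, 951 and 885 CPM (log2 fold change 1.07 ± 0.05, adjusted p = 1.29e-17). In all 3 the groups were apart by more than their own spread. Osgin1 rose by 1.58 ± 0.07, the glutathione synthesis genes Gclm and Gclc by 1.05 ± 0.04 and 0.69 ± 0.04, Txnrd1, thioredoxin reductase, by 1.00 ± 0.04 and Gsr, glutathione reductase, by 0.63 ± 0.05. The gene of NRF2 itself, Nfe2l2, rose from 126 ± 8.42 to 185 ± 15.2 CPM (0.56 ± 0.06), and Sqstm1, an autophagy receptor that binds the NRF2 inhibitor KEAP1, from 1001 ± 36.9 to 1564 ± 97.9 CPM (0.64 ± 0.05). Nqo1, a standard NRF2 target, did not pass the test, at 424 ± 23.4 to 436 ± 14.9 CPM (0.04 ± 0.05). Of 27 promoters in this list 11 held TGACNNNGC (40.7%, against 16.8% of tested genes). That share covers all members, called or not, of a list made of known NRF2 targets. Of all genes with a promoter that were called higher 17.2% held it, and of those more than 2-fold higher 14.0%. Several of these genes respond to other factors too, Slc7a11 to ATF4 and Hmox1 to AP-1 among them.

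Of 27 further antioxidant, metallothionein and iron genes 9 were higher and 3 lower (1 without IL-1β replicate 8). Prdx6 rose from 113 ± 4.32 to 194 ± 4.59 CPM (0.78 ± 0.04), the metal importer Slc11a2 from 16.1 ± 0.291 to 29.0 ± 2.14 CPM (0.85 ± 0.06), the metalloreductase Steap4 by 1.94 ± 0.34 and the metallothionein Mt2 by 0.70 ± 0.10. Of the Mt2 transcript 49.9% matches another gene closely. In the ATF4 program 10 of 32 genes were higher and 1 lower, and the median was 0.05. Besides Slc7a11, the growth factor-like cytokine Gdf15 rose by 1.12 ± 0.21 and Ppp1r15a, the eIF2α phosphatase subunit, by 0.65 ± 0.05, while Atf4 and Ddit3 were not called (0.03 ± 0.04 and -0.09 ± 0.07), and 95.4% of the Ddit3 transcript matches other genes closely. Of 32 ER chaperones and stress sensors, 3 were higher and 1 lower (2 without IL-1β replicate 8). Over all tested genes the shares were 10.1% higher and 4.97% lower. Ern1, the sensor IRE1α, rose by 0.47 ± 0.06 and Atf6 by 0.24 ± 0.05, the cofactor Sdf2l1 fell by 0.38 (SE 0.10), and Hspa5, the most abundant ER chaperone, had a log2 fold change of -0.03 ± 0.04. The transcripts of Ern1 (7002 bases) and Atf6 (7541 bases) are in the longest class, where 30.2% of genes were called higher. The part of transcript length in their rises was not tested.

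Genes that respond to fatty acids through PPAR receptors rose in 13 of 28 cases and fell in 2 (1 without IL-1β replicate 8), with a median of 0.30. Angptl4, a secreted inhibitor of lipoprotein lipase, stood at 3.08, 4.07, 6.29 and 4.33 CPM with BSA and at 99.8, 101, 105 and 96.5 CPM with IL-1β (log2 fold change 4.52 ± 0.13, adjusted p = 2.61e-12). Pdk4, which shuts pyruvate out of the citric acid cycle, stood at 34.5, 30.6, 34.3 and 31.8 CPM and 90.4, 86.5, 100.3 and 92.7 CPM (log2 fold change 1.50 ± 0.05, adjusted p = 2.25e-20). In both genes no IL-1β library came near the BSA range. Cpt1a, which brings fatty acids into mitochondria, rose from 112 ± 2.16 to 216 ± 8.05 CPM (0.95 ± 0.04) and Ppard, the gene of PPARδ, from 32.9 ± 1.85 to 46.9 ± 2.27 CPM (0.51 ± 0.05). Palmitate had been added in none of the 8 libraries compared.

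Cholesterol synthesis genes moved the other way. Of 33 tested genes of cholesterol synthesis and uptake, 18 were called lower against 4.97% of all genes tested, and 1 was higher, with a median of -0.31. The number lower ran from 17 to 20 when 1 library was left out. Idi1, an enzyme of the isoprenoid steps, stood at 28.7, 28.4, 31.9 and 28.1 CPM with BSA and at 14.5, 17.1, 18.4 and 19.7 CPM with IL-1β (log2 fold change -0.74 ± 0.07, adjusted p = 7.15e-10). Mvk, mevalonate kinase, stood at 18.8, 16.6, 21.6 and 21.3 CPM and 11.1, 12.3, 12.8 and 11.7 CPM (log2 fold change -0.70 ± 0.08, adjusted p = 2.60e-08). Hmgcs1, an enzyme of the early mevalonate steps, stood at 253, 265, 303 and 274 CPM and 181, 183, 196 and 209 CPM (log2 fold change -0.51 ± 0.05, adjusted p = 3.25e-09). The groups did not overlap in any of the 3, and the falls were below 2-fold. Sqle, squalene epoxidase, fell by 0.37 (SE 0.05), Tm7sf2 by 0.67 (SE 0.13) and Acat2 by 0.61 (SE 0.07) on the log2 scale, though 55.4% of the Acat2 transcript matches other genes closely.

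**Figure D4:**
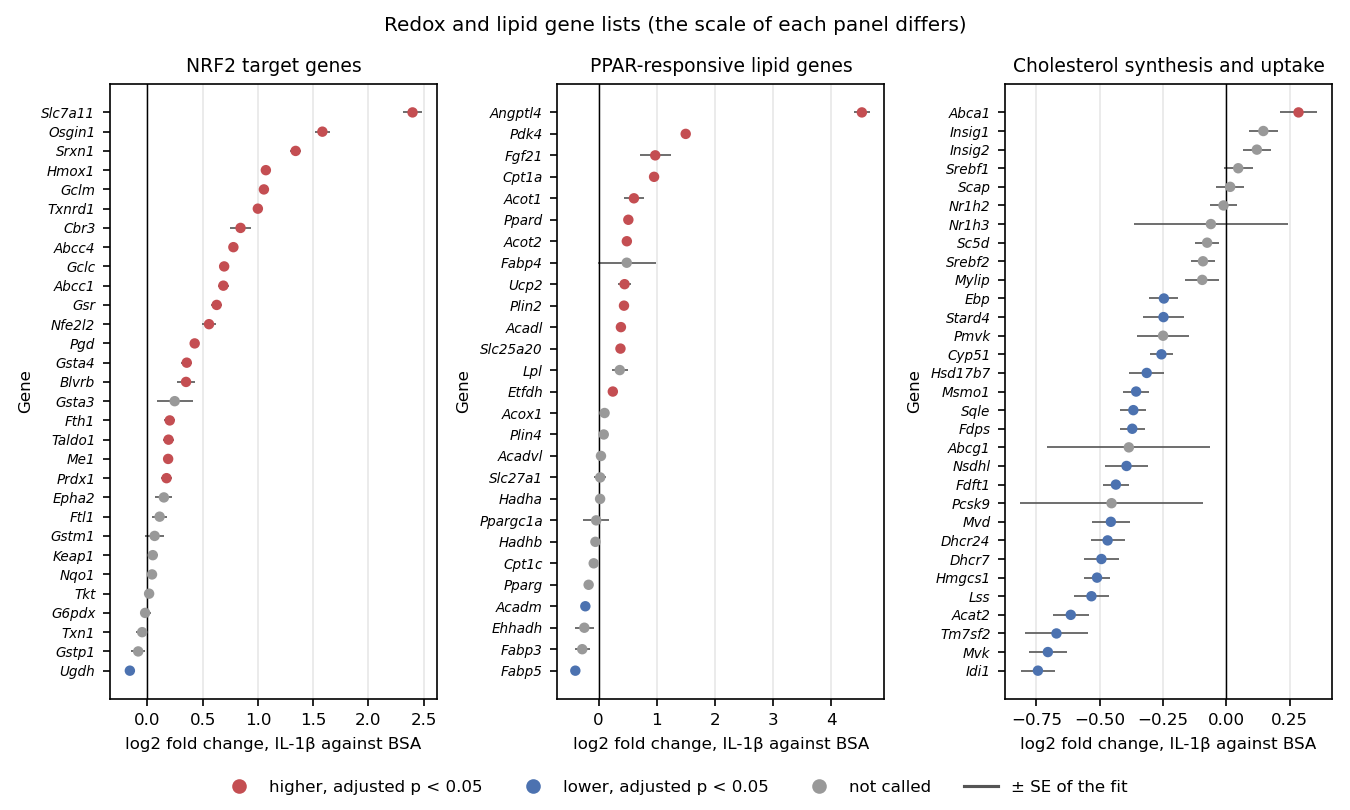
Fitted log2 fold change of the tested genes of 3 lists, without those not reported here (IL-1β against BSA, bars ± SE, red called higher, blue called lower, grey not called, with a different scale in each panel). In the NRF2 and PPAR panels the called genes lie mostly right of 0 (19 of 30 and 13 of 28 tested members were higher), and in the cholesterol panel mostly left of it (18 of 33 were lower).

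Among genes of glycolysis and the respiratory chain, all calls were below 2-fold. Of 35 glycolysis and hypoxia-responsive genes 8 were higher (7 without IL-1β replicate 8) and 1 lower, against 10.1% and 4.97% over all tested genes. The rises included Adm at 0.68 ± 0.14, Egln3 at 0.54 ± 0.09, Ero1a at 0.39 ± 0.05 and Vegfa at 0.35 ± 0.05. Of 12 tested mitochondrially encoded genes 0 were called by edgeR, 0 at an unadjusted p below 0.05 and 0 by DESeq2, and their median was 0.03. Of 75 nuclear-encoded respiratory chain genes 0 were higher and 6 lower, with a median of -0.07. These transcripts are short, and the count of 6 became 0 without IL-1β replicate 8, 1 with the length offset and 12 with upper-quartile scaling, and the part of transcript length in these falls was not tested. Uqcrh (-0.31 ± 0.10) and Cox5a (-0.24 ± 0.08) were among them. For adenosine and AMP handling 2 of 20 genes were higher (1 without IL-1β replicate 8) and 2 lower. Over all tested genes 10.1% were higher and 4.97% lower. Ampd3, AMP deaminase, stood at 35.6, 37.0, 40.2 and 39.5 CPM with BSA and at 109, 104, 107 and 106 CPM with IL-1β (log2 fold change 1.49 ± 0.05, adjusted p = 8.09e-22), and Pnp, purine nucleoside phosphorylase, fell by 0.31 (SE 0.06), though 50.6% of its transcript matches Pnp2.

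Matrix genes carried the largest gains in counts but small fold changes. Fn1, fibronectin, stood at 14315, 14784, 17293 and 16218 CPM with BSA and at 19133, 19340.0, 20606 and 24414 CPM with IL-1β (log2 fold change 0.42 ± 0.10, adjusted p = 0.0112), with the highest value in IL-1β replicate 8. Col6a3 stood at 2237, 2304, 2679 and 2582 CPM and 2991, 3116, 3333 and 4044 CPM (log2 fold change 0.46 ± 0.12, adjusted p = 0.0192), again highest in that library, and its call was lost without it, as were those of Col12a1 (0.46 ± 0.13) and Fbn1 (0.52 ± 0.14), the gene of fibrillin-1. All these transcripts are in the longest class, where 30.2% of genes were called higher, and the part of transcript length in their rise was not tested. Nid1, a basement membrane protein, rose from 2773 ± 158 to 3502 ± 154 CPM (0.34 ± 0.05). Its transcript of 6097 bases is in the longest class too, and its highest value was again in IL-1β replicate 8 (3680 CPM). Of 32 collagen chains 4 were called higher (1 without IL-1β replicate 8, 2 with the length offset, and 0 to 8 when 1 library was left out) and 0 lower. Over all tested genes 10.1% were called higher. Col1a1 had a log2 fold change of 0.12 ± 0.04, a call that did not hold without IL-1β replicate 8 or with the length offset, and Col1a2 and Col3a1 were not called (0.05 ± 0.04 and -0.06 ± 0.04).

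Contractile and TGF-β response genes leaned lower, 13 of 37 (10 without IL-1β replicate 8), with 5 higher (3 without it) and a median of -0.12. Lmod1, an actin filament nucleator of contractile cells, stood at 53.2, 47.4, 44.3 and 52.9 CPM with BSA and at 34.0, 32.4, 32.9 and 28.0 CPM with IL-1β (log2 fold change -0.64 ± 0.08, adjusted p = 7.83e-06). Tagln, transgelin, stood at 621, 666, 630.0 and 635 CPM and 525, 563, 598 and 528 CPM (log2 fold change -0.21 ± 0.05, adjusted p = 0.00470). Of the Tagln transcript 47.1% matches another gene closely. Tgfb3 fell from 174 ± 3.82 to 137 ± 2.98 CPM (by 0.34, SE 0.04). Acta2, smooth muscle actin, went from 3337 ± 197 to 3018 ± 188 CPM (-0.15 ± 0.05) and was not called without IL-1β replicate 8. Ccn2 and Postn, common readouts of TGF-β, were not called (-0.07 ± 0.04 and -0.05 ± 0.05). The summed pericyte and smooth muscle markers given above were lower with IL-1β too, and how much of these falls they share was not tested. Among metalloproteinases, ADAMTS and TIMP genes 8 of 36 were higher and 6 lower (10 lower with the length offset). The collagenase Mmp13 rose from 17.2 ± 0.450 to 28.6 ± 0.784 CPM (0.74 ± 0.06), and the aggrecanase Adamts4 and the procollagen peptidase Adamts14 by 0.51 ± 0.06 and 0.49 ± 0.06. For proteoglycans and hyaluronan 3 of 27 were higher and 3 lower (2 without IL-1β replicate 8), with the hyaluronan synthase Has2 falling by 0.38 (SE 0.08) and Cemip, a hyaluronan-degrading protein, at 0.33 ± 0.06. Over all tested genes 10.1% were higher and 4.97% lower.

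Most developmental signalling genes were not called. In the Wnt, Notch and craniofacial lists more were called lower than higher, and all calls were below 2-fold. Of 38 Wnt pathway genes 12 were lower (11 without IL-1β replicate 8) and 1 higher, with a median of -0.22. Wnt9a fell from 13.0 ± 0.700 to 8.88 ± 0.387 CPM (by 0.55, SE 0.09), Nkd2, a Wnt feedback inhibitor, by 0.42 (SE 0.09) and Axin2, the usual Wnt target, by 0.61 (SE 0.20), but the Axin2 libraries overlapped and the call was lost in 5 of the 8 fits without 1 library. Of 21 Notch genes 5 were lower and 3 higher. Lfng, the glycosyltransferase that tunes Notch receptors, stood at 4.50, 4.62, 5.61 and 5.00 CPM with BSA and at 2.58, 2.93, 2.41 and 2.03 CPM with IL-1β (log2 fold change -0.98 ± 0.13, adjusted p = 1.37e-06). Its libraries did not overlap, and neither did those of Hes1, a Notch target, which fell from 22.1 ± 2.23 to 15.3 ± 2.09 CPM (by 0.53, SE 0.09). Rbpj, the DNA-binding partner of Notch, rose from 157 ± 8.08 to 225 ± 18.1 CPM (0.52 ± 0.05). Of 40 craniofacial mesenchyme transcription factors 11 were lower (10 without IL-1β replicate 8) and 5 higher. Dlx1 fell by 0.66 (SE 0.15), while Msx2, Twist2 and Sox8 rose by 0.56 ± 0.12, 0.55 ± 0.13 and 0.52 ± 0.16, and the Sox8 call was lost in 4 of the 8 fits without 1 library. Of the Twist2 transcript 52.1% matches another gene closely, and of the Dlx1 transcript 47.9%. In the IGF system 3 of 14 genes were higher (2 without IL-1β replicate 8) and 1 lower, with Stc2 rising by 0.53 ± 0.09 and the binding protein Igfbp6 falling by 0.36 (SE 0.09).

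Transcription factors of the early response were unequal 24 h after IL-1β. Of 24 immediate early and AP-1 genes 11 were higher (10 without IL-1β replicate 8) and 1 lower (0 without it). Atf3, a stress-induced repressor, stood at 4.41, 5.10, 5.57 and 5.63 CPM with BSA and at 20.9, 22.5, 21.7 and 21.7 CPM with IL-1β (log2 fold change 2.07 ± 0.08, adjusted p = 6.51e-19). Fosl1, an AP-1 subunit, rose from 1.64 ± 0.240 to 4.03 ± 0.909 CPM (1.29 ± 0.15), though 69.8% of its transcript matches other genes closely. Myc rose from 8.93 ± 1.18 to 19.8 ± 3.29 CPM (1.14 ± 0.12) and Klf10 from 32.3 ± 3.48 to 62.7 ± 4.60 CPM (0.96 ± 0.06). Of 21 gp130, STAT3 and SOCS genes 7 were higher (5 without IL-1β replicate 8) and 2 lower, among them Osmr, the oncostatin M receptor, which rose by 0.61 ± 0.06, Tyk2 by 0.39 ± 0.05 and Socs5, which fell by 0.30 (SE 0.05), and Socs3, a readout of STAT3, was not called (-0.15 ± 0.12). Survival and death genes were called higher in 10 of 32 and lower in 1. Casp4, the inflammatory caspase named caspase-11 in mice, rose from 4.40 ± 0.369 to 12.0 ± 0.653 CPM (1.44 ± 0.09) and the BH3-only gene Bid by 0.87 ± 0.05, though 61.6% of the Bid transcript matches Bcl2l13 closely. Nlrp3, the inflammasome sensor, had 3 counts in the BSA libraries together and 32 in the IL-1β libraries (ratio 12.1, 95% exact interval 3.77 to 61.5). Of the cell cycle and DNA replication genes, 10 of 59 were higher (8 without IL-1β replicate 8) and 3 lower (2 without it), with Cdk6 at 0.57 ± 0.11 and Mcm10 at 0.49 ± 0.08. Of 19 circadian clock genes 4 were higher (2 without IL-1β replicate 8) and 2 lower (1 without it), with Bhlhe40 at 0.23 ± 0.04 and Tef at -0.20 ± 0.04.

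Among genes with a mean of at least 1 CPM and no overlap between the groups, the largest falls were below 2-fold and lay in scattered genes. The 23 genes called more than 2-fold lower were outside these limits, 21 below 1 CPM in both groups and 2 with overlapping libraries. Card10, a scaffold protein that links receptors to NF-κB, stood at 19.4, 20.9, 19.6 and 18.2 CPM with BSA and at 11.1, 11.0, 10.3 and 10.6 CPM with IL-1β (log2 fold change -0.86 ± 0.07, adjusted p = 2.64e-11). P2ry14, a receptor for UDP-glucose, stood at 6.30, 7.33, 7.10 and 7.03 CPM and 3.52, 3.98, 4.18 and 4.18 CPM (log2 fold change -0.80 ± 0.11, adjusted p = 2.80e-06). Both pairs of groups were apart. Tent5b fell by 0.76 (SE 0.11), Izumo4 by 0.82 (SE 0.11) and Rdh5 by 0.88 (SE 0.24), and Rdh5 lost its call without BSA replicate 2. Of the Rdh5 transcript 47.9% matches another gene closely. Tnni3 and Anks1b fell by 0.98 (SE 0.32) and 0.88 (SE 0.30), both calls lost without IL-1β replicate 8 and without adjusted p from DESeq2. Among abundant genes, the largest losses in CPM included Actb (from 4499 ± 141 to 3989 ± 94.5 CPM), the BMP antagonist Grem1 (from 4001 ± 97.5 to 3543 ± 41.0 CPM), Cav1 (from 855 ± 36.3 to 695 ± 4.83 CPM) and the pericyte and fibroblast protein Cd248 (from 775 ± 36.0 to 654 ± 14.8 CPM), by log2 fold changes of -0.17 ± 0.04, -0.18 ± 0.04, -0.30 ± 0.04 and -0.25 ± 0.04.

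Some of the named features have no gene symbol of their own. Gm16685 (ENSMUSG00000097804.2), a long noncoding RNA on chromosome 3 (7641280 to 7814826) that overlaps Il7 on the opposite strand, stood at 1.12, 1.16, 1.07 and 0.979 CPM with BSA and at 8.02, 6.05, 7.44 and 7.66 CPM with IL-1β (log2 fold change 2.74 ± 0.12, adjusted p = 5.92e-18). Gm37498 (ENSMUSG00000103907.2, chromosome 3, 50354731 to 50358732) lies within Slc7a11 on the same strand, so its rise of 2.58 ± 0.34 may hold reads of Slc7a11 and is uncertain. Gm2670 (ENSMUSG00000097002.2, chromosome 14, 28230031 to 28233349) overlaps Wnt5a on the opposite strand and fell by 0.97 (SE 0.26), Gm11767 (ENSMUSG00000085207.3, chromosome 11, 119822911 to 119834232) overlaps Baiap2 likewise and fell by 0.82 (SE 0.19). Gm16046 (ENSMUSG00000085705.2, chromosome 17, 13895924 to 13903832) fell by 1.00 (SE 0.26). Gm4130 (ENSMUSG00000114579.2, chromosome 13, 91409568 to 91410537), a processed pseudogene, fell by 0.78 (SE 0.25), but all of its sequence is near-identical to other genes and the call was lost without IL-1β replicate 8. Without knowledge of the strand setting of the counts, it is not known whether reads of a gene and its antisense partner were kept apart.

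**Figure D5:**
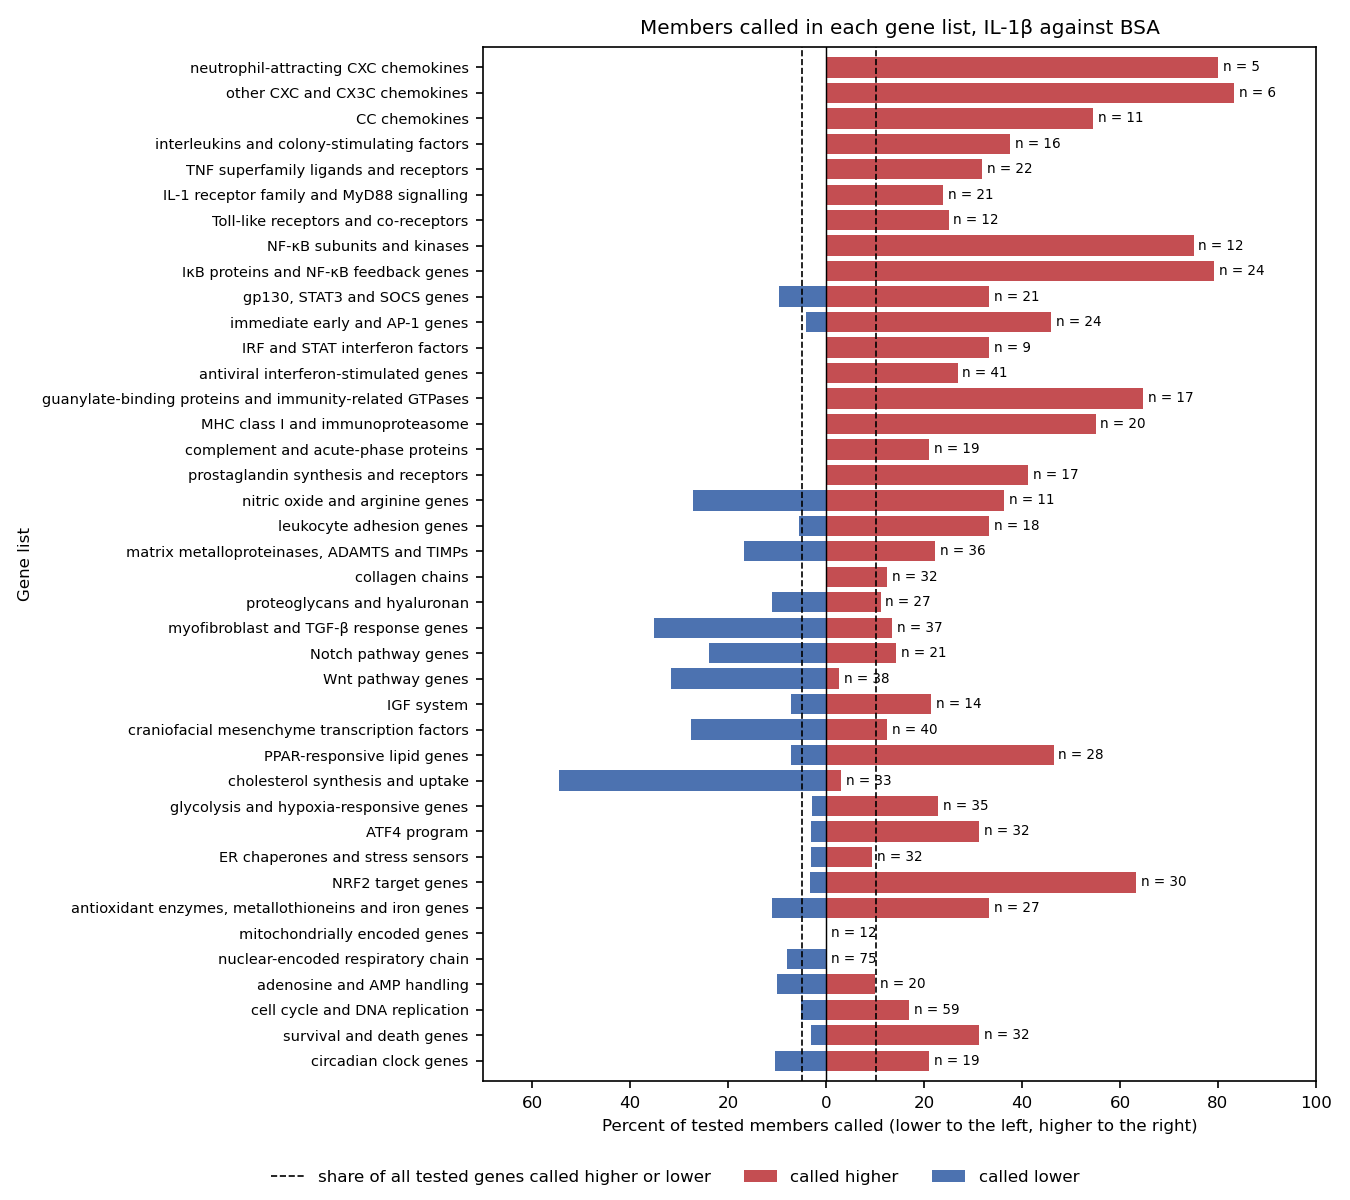
Percent of tested members called higher (red, to the right) and lower (blue, to the left) in each of 40 gene lists, with the number tested and dashed lines at the share of all tested genes, 10.1% higher and 4.97% lower. Chemokine, feedback, GBP and NRF2 lists extend far right of the dashed line, and the cholesterol list extends furthest left, with 18 of 33 lower.

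For scale, levels with IL-1β were set beside those with palmitate at 200 µM from the same series. IL-1β and palmitate differed in 5156 of 16306 genes (31.6%, adjusted p below 0.05 in the same fit), and in 191 of the 267 genes named by rule or by choice here, which were picked from a comparison that shares the IL-1β libraries. Of these 191, 150 were lower with IL-1β than with palmitate and 41 higher. The split by direction over all 5156 genes was not counted, so whether this lean is particular to the named genes was not tested. Of 32 named genes of the chemokine, interleukin, complement, nitric oxide and adhesion lists (put together after the values were seen) called higher against BSA, 27 were lower with IL-1β than with palmitate and 1 was higher. The log2 differences were -1.38 ± 0.05 for Cxcl1, -1.60 ± 0.11 for Ccl2, -1.96 ± 0.05 for Vcam1, -3.05 ± 0.07 for Icam1, -2.84 ± 0.05 for C3 and -5.01 ± 0.13 for Nos2. Angptl4 was higher with IL-1β (mean 100.5 ± 3.40 CPM) than with palmitate (20.7 ± 2.67 CPM), by 2.26 ± 0.11 on the log2 scale. Pdk4 was at 92.5 ± 5.82 CPM under IL-1β and 40.8 ± 1.19 CPM under palmitate (1.18 ± 0.05). Atf3 was higher with IL-1β by 1.90 ± 0.08 and Ptgs2 by 0.43 ± 0.05. Of the interferon-responsive genes, Gbp2 stood at 60.7 ± 1.52 CPM under IL-1β and at 426 ± 19.9 CPM under palmitate, and Ifit1 at 16.1 ± 5.62 CPM and 262 ± 33.0 CPM, log2 differences of -2.81 ± 0.05 and -4.03 ± 0.27. Idi1 was lower with IL-1β (17.4 ± 2.20 CPM) than with palmitate (31.9 ± 1.24 CPM), by a log2 difference of -0.87 ± 0.07, and so was Hmgcs1 (-0.43 ± 0.05). All these differences passed the test, and those of Cxcl2 (-0.02 ± 0.12) and Myc (-0.03 ± 0.11) did not.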

How the data were processed

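RNA of mouse gingival fibroblasts was sequenced in 16 libraries, and the authors deposited 1 table of raw counts, whole numbers of reads per gene and library. Per the labels, reads were trimmed with Trimmomatic 0.39, aligned with STAR 2.7.10a to GRCm39 and counted with HTSeq 2.0.9. A stranded kit for total RNA is named in the labels and an oligo(dT) kit in the study's methods. The deposited counts have the word strand in their name, but the strand setting is not given in the sources used here. Summary entries for unassigned reads (18.3 to 21.4% of a library's reads) were left out. Values per library are counts per 1000000 (CPM) on library sizes scaled by TMM. They are not adjusted for transcript length.

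Genes passing edgeR's filter (minimum count 10, minimum total 15) were fitted over all 16 libraries with 1 mean per group (12 residual degrees of freedom) by edgeR 4.0.16 in R 4.3.3 (robust quasi-likelihood), and genes were called at a Benjamini-Hochberg adjusted p below 0.05 over 16306 genes. The biological coefficient of variation was 6.08%. DESeq2 1.42.0, the study's tool, was an alternative. Counting intervals and the floor of 3 counts cover counting error only, and 3 counts were worth 0.0888 to 0.124 CPM in a library. The fit was tested on simulated data for this comparison (16306 genes): it called 26 of 50 genes set to 1.25-fold, 32 of 50 at 1.5-fold, 41 of 50 at 2-fold, 49 of 50 at 4-fold and 0.0568% of unchanged genes. There, far fewer genes were set to change than were called in the data, and levels were means over all 16 libraries. These rates need not hold for the real comparison.

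The comparison and the 40 gene lists (17 members matched by an older symbol) were chosen with earlier results of these data known. Lists are described by counts and medians over the members that passed the filter, with no set test. Genes were named by rule (230 genes): the 15 largest rises and 12 largest falls with no overlap and at least 1 CPM, the 8 largest gains and losses in CPM, up to 4 called members per list, the receptor to NF-κB pathway and genes the study names. A further 37 genes were named after their values were seen. A few members of the lists enter the counts but are not reported here by name. Positions and lengths are from GENCODE vM39 (GRCm39), and shared sequence was searched among transcripts with blastn 2.17.0+ (at least 95% identity over 150 bases). Genes that overlap on the genome were not set aside in that search, so a match need not be a copy. Trends with length used genes at a mean above 3 on the log2 CPM scale. In promoters, 5 motifs were searched on both strands. Of these, TTCNNNGAA was found in 6 of 11 GBP and immunity-related GTPase genes (54.5%, against 8.13% of tested genes) and TCACNCCAC in 1 of 24 cholesterol genes (4.17%, against 1.37%). Motif shares of a list cover all its members with a promoter, called or not.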

Additional observations from a re-analysis of the deposited data

Results flagged for a closer look

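In 27 of 534 groups of 4 values (5.06%), 1 library of a named gene lay farther from its group than Dixon's 95% limit allows (the gap to the nearest other library as a share of the group's range), and chance alone gives about 1 in 20. By library, these were 7 in IL-1β replicate 8, 6 in BSA replicate 3, 4 in BSA replicate 2, 3 each in BSA replicate 4 and IL-1β replicate 5, and 2 each in BSA replicate 1 and IL-1β replicate 7.

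IL-1β replicate 8 was high in Rbpj (252.0 CPM), Atf6 (112.9 CPM), Insr (116.5 CPM) and Map3k7 (109.5 CPM) and low in Acta2 (2739 CPM), Pnp (10.69 CPM) and Irak4 (12.84 CPM). Insr and Acta2 lost their calls without this library. IL-1β replicate 7 was high in Cxcl1 (165.6 CPM) and Nfkb1 (79.93 CPM), and IL-1β replicate 5 in Zfp36 (8.921 CPM), Isg15 (0.2864 CPM) and Otulin (15.67 CPM).

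BSA replicate 3 was high in Kitl (48.95 CPM), Idi1 (31.89 CPM) and Irak1bp1 (10.26 CPM) and low in Cx3cl1 (34.79 CPM), Gm16046 (1.221 CPM) and Axin2 (2.289 CPM). BSA replicate 2 was high in Fgf21 (0.9369 CPM) and low in Txnrd1 (213.2 CPM), Psmb8 (0.0646 CPM) and Ndufs8 (10.56 CPM). BSA replicate 4 was high in Tgtp1 (0.2796 CPM) and low in Ern1 (21.67 CPM) and Irf2 (20.34 CPM). BSA replicate 1 held the only BSA count of Cxcl3 (0.0296 CPM) and was low in Ccl11 (0.1776 CPM).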

How the results depend on the processing

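Of 216 called genes among the 267 named, 179 kept their call under every alternative that gave an adjusted p, and 37 lost it under at least 1. By fit, 27 lost it without BSA replicate 2, 26 without IL-1β replicate 8 and 25 without BSA replicate 1. Without any other single library 12 to 16 lost it, and with the length offset 16. A gene can be counted in several of these fits. No called named gene changed sign. DESeq2 gave no adjusted p for 8 named genes and for 2846 of all tested genes.

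The number of genes called was 2743 with upper-quartile scaling, 2408 with DESeq2's size factors, 2561 with DESeq2's own test, 2321 with no expression filter, 2465 with at least 10 counts in each of the 8 libraries, 2118 with only the 8 libraries compared (where 2427 of the 2464 genes called with all 16 libraries passed the filter), 2438 without mitochondrial and ribosomal RNA genes and 2332 with the length offset. Upper-quartile scaling raised the number of lower calls from 810 to 1551, and its median log2 fold change over all genes was -0.0515. Requiring at least 10 counts in every library, which removes genes near 0 with BSA, lowered the changes of more than 2-fold from 170 to 85. The 23 falls of more than 2-fold became 3 with DESeq2, 2 with at least 10 counts in every library and 36 with no filter.

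When 1 library was left out, 1784 (without BSA replicate 1) to 2486 (without BSA replicate 3) genes were called, 1201 to 1672 higher and 563 to 814 lower, 146 to 172 changed more than 2-fold, and 310 to 357 genes of the lists were called, against 356 with all libraries. The difference in mitochondrial share ran from -0.992 to -0.127 percentage points. Among named genes, 191 differed between IL-1β and palmitate, and 194 when only those 8 libraries were fitted.

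No paired analysis was possible because the BSA and IL-1β libraries share no replicate number. On simulated data, where far fewer genes were set to change than were called here, the smallest change was called in 52% of cases. That rate need not hold for the real data, and small changes can be missed at this depth. Genes with few counts, such as Cxcl3, Cxcl9, Cxcl11 and Nlrp3, are limited by depth.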
